A study of Mus musculus with 12 samples.

Results

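Cell cycle genes were followed in granulosa cells (GCs) and in the ovarian stromal tissue (OST) of superovulated mice that had received Semaphorin 3E (Sema3E) or control immunoglobulin (IgG) in the ovary. The set held 39 genes out of the 23150 in the deposited expression table, matched by gene symbol, and all 39 were found. They were chosen by function and not by their values: 5 G1 cyclins and kinases, 4 genes of entry into S phase, 3 inhibitors of cyclin-dependent kinases, 10 genes of DNA replication and nucleotide supply, 10 genes of G2 and mitotic entry, 5 genes of the spindle checkpoint and mitotic exit, and 2 proliferation markers. Levels are given in TPM, a length-corrected share of the transcripts in a library. All 39 exceeded 1 TPM in at least 1 library of every comparison, so none was lost to the filter on low values.

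Sema3E is a secreted guidance protein whose receptor is Plexin-D1, and the study asked what its excess does to the ovary around ovulation. All groups were wild-type C57BL/6J females aged 21 to 23 days that received 5 IU of pregnant mare serum gonadotropin (PMSG), which drives follicle growth, and 44 to 48 h later 5 IU of human chorionic gonadotropin (hCG), used to imitate the ovulatory LH surge. Sema3E (2 µg in a volume of 10 µL, in saline with albumin) went into the ovary of one side and the same mass of IgG into the other, and tissue was taken 8 h after hCG. The 4 groups were OST of Sema3E ovaries, OST of IgG ovaries, GCs of Sema3E ovaries and GCs of IgG ovaries, with 3 libraries each and 1 ovary behind each library. GCs were the cells released when follicles were punctured with a needle and OST was what remained, so neither was a sorted population.

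The cell cycle is run by cyclin-dependent kinases (CDKs), each switched on by a cyclin partner and held back by inhibitor proteins. D-type cyclins with CDK4 or CDK6 release E2F factors from the retinoblastoma protein in G1, E2F targets such as the MCM helicase load and copy DNA in S phase, and cyclin B with CDK1 drives mitosis under a later wave of genes that depend on FOXM1 and B-MYB. In the growing follicle GCs divide under FSH, with cyclin D2 as their leading D-type cyclin. The LH surge ends that division as GCs turn into luteal cells, and CDK inhibitors rise at that time.

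The 2 waves of genes carry different short promoter sequences, and 4 promoters are shown, 2 replication genes and 2 mitotic genes whose values are given below. Of the 39 genes, 31 had a promoter in the RefSeq table for GRCm38.p6 (250 bases before to 50 after the start), and Aurkb, Ccna2, Ccnd1, Ccnd2, Ccne2, Cdc25c, Foxm1 and Mcm4 had none there. Letters searched on both strands were TTTGAA (the cell cycle homology region, CHR), CCAAT, and 3 E2F spellings, TTTGGCGC, TTTCGCGC and GGCGGGAA. Below are the 160 bases before the start, 5′ to 3′ on the gene's strand, with those letters in capitals. None of these stretches overlaps an exon of GENCODE M21. Mcm6 (chr1:128359706-128359865, minus strand) and Mcm2 (chr6:88898781-88898940, minus strand) encode helicase subunits, Mki67 (chr7:135716380-135716539, minus strand) encodes the Ki-67 antigen of dividing cells, and Top2a (chr11:99024190-99024349, minus strand) encodes the topoisomerase that untangles sister chromatids.
Mcm6: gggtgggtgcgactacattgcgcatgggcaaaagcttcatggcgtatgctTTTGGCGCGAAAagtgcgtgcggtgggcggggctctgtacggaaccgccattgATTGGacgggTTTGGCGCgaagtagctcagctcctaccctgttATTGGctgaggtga
Mcm2: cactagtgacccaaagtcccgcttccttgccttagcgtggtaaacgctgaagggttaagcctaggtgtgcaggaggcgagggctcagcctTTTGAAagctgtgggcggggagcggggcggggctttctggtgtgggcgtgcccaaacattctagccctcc
Mki67: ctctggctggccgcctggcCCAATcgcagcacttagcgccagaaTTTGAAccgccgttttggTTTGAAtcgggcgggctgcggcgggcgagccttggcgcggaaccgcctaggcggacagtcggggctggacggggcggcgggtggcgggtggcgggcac
Top2a: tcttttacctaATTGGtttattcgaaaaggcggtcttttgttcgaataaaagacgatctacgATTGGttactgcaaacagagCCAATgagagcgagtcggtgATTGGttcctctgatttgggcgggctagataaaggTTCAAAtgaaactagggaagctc

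In these stretches Mcm6 held E2F letters and no CHR letters, while Mki67, Top2a and also Mcm2, a replication gene, held CHR letters and no E2F letters. In Mcm6 the E2F letters began at bases -110, -106 and -47 from the start, the first pair overlapping. The CHR letters began at -116 and -98 in Mki67, at -23 in Top2a and at -70 in Mcm2. CCAAT letters stood in the stretches of Mcm6, Mki67 and Top2a. Over the full windows, E2F letters were in 5 of 9 replication genes (Mcm3, Mcm5, Mcm6, Mcm7 and Rrm1) and 1 of 13 mitotic genes (Cdk1), against 3.39% of the 27025 genes in the table. CHR letters were in 8 of 13 mitotic genes (Aurka, Bub1b, Ccnb2, Cdc20, Cdk1, Mki67, Plk1 and Top2a) and 1 of 9 replication genes (Mcm2), against 20.2% of all genes. CCAAT letters were in 11 of 13 and 8 of 9, against 41.1% of all genes. A match describes the letters and not a bound factor.

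Theca and stroma markers set the labelled tissues apart, granulosa markers did not, and 2 IgG libraries differed from the rest. Summed over 12 theca and stroma markers, OST had 1363 to 1935 TPM and GCs 67.8 to 121 TPM. The 12 granulosa markers summed to 6533 to 15769 TPM in OST and 7323 to 14717 TPM in GCs, so they were present in both. Markers of luteinizing granulosa cells summed to 51.7 to 3811 TPM in OST and 1610 to 2489 TPM in GCs. Globin transcripts took 0.261% to 0.637% of TPM in OST and 4.54% to 19.6% in GCs, which lowers the TPM of every other gene in a library with much blood. GC IgG 1, with 19.6%, had the lowest value of the 6 GC libraries for 32 of 39 members (58.9% of all genes). GC IgG 3, with 4.54%, had the highest for 29 of 39 (32.1% of all genes). GC Sema3E 2, with 15.8% globin, was lowest for 4 of 39 (12% of all genes). In GC IgG 1, macrophage and monocyte markers summed to 2860 TPM and neutrophil markers to 721 TPM. The other GC libraries had 192 to 633 TPM and 43.7 to 464 TPM. The granulosa marker sum of GC IgG 1, 7323 TPM, was the lowest of the 6 GC libraries. The part of globin and of these cell types in its low values was not tested. OST IgG 3 had the highest value of the 6 OST libraries for 32 of 39 members (47.8% of all genes). In that library 12 markers of luteinizing granulosa cells summed to 51.7 TPM, against 2904 and 3707 TPM in the other OST IgG libraries. Its 12 oocyte markers summed to 1626 TPM, against 508 and 577 TPM. Its 12 granulosa markers summed to 15769 TPM, the highest of the 12 libraries, against 8567 and 8499 TPM in the other OST IgG libraries. In bulk tissue, fewer cells of a type and less RNA per cell cannot be told apart.

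**Figure D1:**
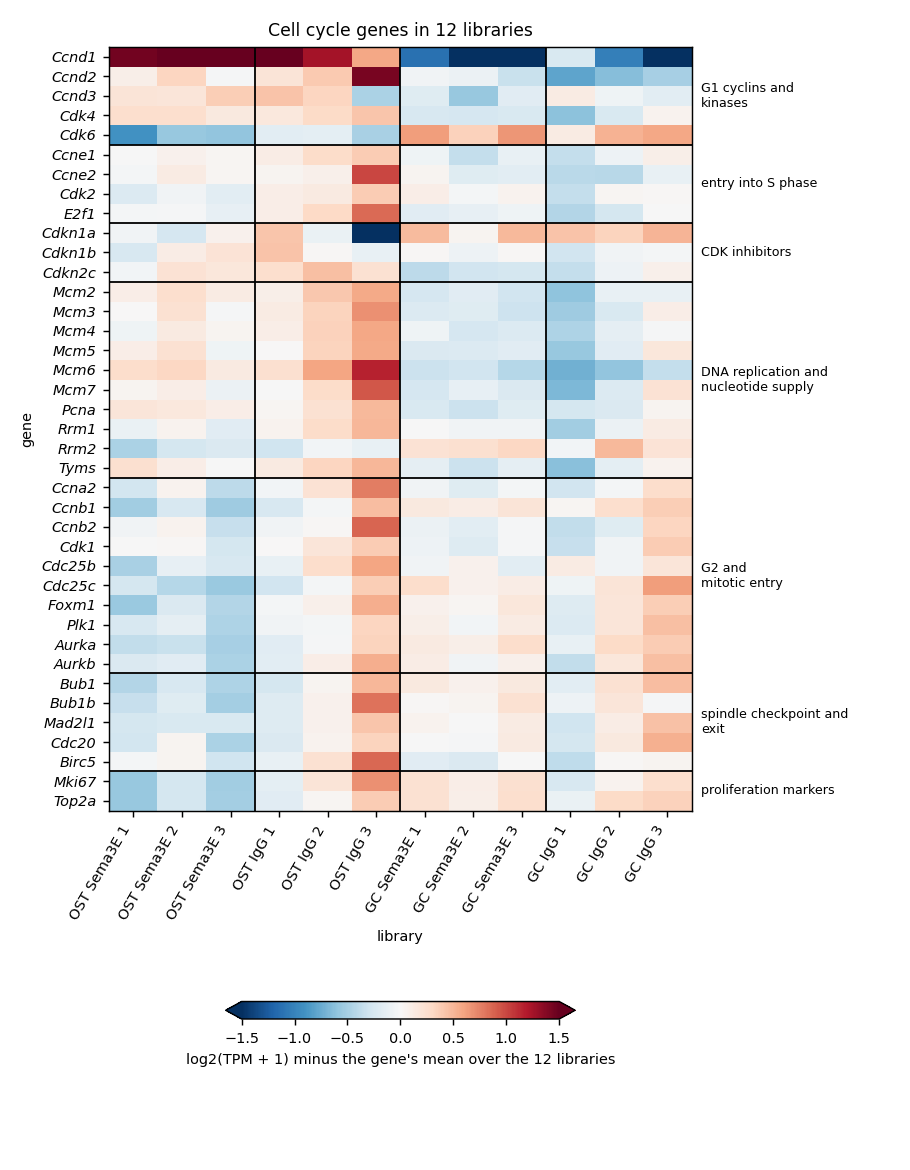
Each row is 1 of the 39 genes, ordered by role, and each column 1 of the 12 libraries; colour is log2(TPM + 1) minus the mean of the gene over the 12 libraries, and values past 1.5 in either direction share the end colours. OST IgG 3 is the warmest OST column for 32 of 39 genes, GC IgG 1 the coolest GC column for 32 of 39, and the mitotic rows are cooler in the 3 OST Sema3E libraries.

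The most abundant member was Cdk4, the kinase partner of D-type cyclins, with 502 to 607 TPM in OST and 297 to 474 TPM in GCs. Pcna, Cdkn1b and Cdc20 followed in that order in both tissues, with means over the 6 libraries of 262, 189 and 140 TPM in OST and 199, 171 and 158 TPM in GCs. The ranges of Cdkn1b and Cdc20 overlapped in both tissues. The lowest means were those of Cdk6 in OST (3.39 TPM) and Ccnd1 in GCs (4.61 TPM). The G1 genes thus spanned the whole range of levels.

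OST and GCs differed in their G1 genes and in the balance of replication to mitotic genes. In Sema3E ovaries, 10 members were higher in OST than in GCs and 13 were lower at an adjusted p below 0.05 (limma over 15698 genes, Benjamini-Hochberg). Across all genes tested 28.2% were called higher and 17% lower, so 25.6% of members called higher was near that background and 33.3% called lower was above it. In IgG ovaries 2 members were called higher and 0 lower, where 8.34% of 16627 genes were called higher and 0.301% lower. At an unadjusted p below 0.05, limma gave 10 members higher and 1 lower in IgG ovaries, against 26.9% and 2.72% of all genes. Taken by overlap alone, OST lay above GCs in all libraries for 14 members and below for 14 in Sema3E ovaries, beside 34.6% and 23.9% of all genes and 35.9% of members each, and for 13 (33.3%) and 1 (2.56%) in IgG ovaries, beside 39.8% and 4.97% of all genes.

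Ccnd1, which encodes cyclin D1, had 34.2, 36.1 and 42.9 TPM in OST and 4.95, 2.21 and 2.26 TPM in GCs of Sema3E ovaries. In IgG ovaries it had 36.9, 29.6 and 18.2 TPM in OST and 9.99, 5.37 and 2.89 TPM in GCs. Every OST library was above every GC library in both arms. The log2 difference was 3.28 ± 0.25 (SE, n = 3 libraries per group here and below) in Sema3E ovaries and 2.12 ± 0.42 in IgG ovaries, with limma adjusted p-values of 0.000141 and 0.0314. The GC libraries with the most Ccnd1 also had the most theca and stroma marker RNA: GC IgG 1, GC IgG 2, GC Sema3E 1 and GC IgG 3 held the top 4 places for both in that order, with marker sums of 121, 114, 99.4 and 87.5 TPM. The part of carried-over stromal RNA in the GC values of Ccnd1 was not tested.

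Cdk6, the other G1 kinase, ran the other way. It had 2.21, 3.04 and 2.99 TPM in OST and 8.29, 6.64 and 8.52 TPM in GCs of Sema3E ovaries, and 4.38, 4.42 and 3.29 TPM in OST and 5.55, 7.62 and 7.95 TPM in GCs of IgG ovaries. The 2 tissues did not overlap in either arm. The log2 difference was -1.24 ± 0.14 in Sema3E ovaries (limma adjusted p = 0.000632) and -0.67 ± 0.20 in IgG ovaries (adjusted p = 0.0819). Within a library the ratio of Cdk6 to Cdk4, which does not depend on globin content, was 0.00407 to 0.00864 in OST and 0.0168 to 0.0219 in GCs.

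Cdk4 itself had 542, 543 and 502 TPM in OST and 385, 383 and 388 TPM in GCs of Sema3E ovaries, against 507, 556 and 607 TPM in OST and 297, 388 and 474 TPM in GCs of IgG ovaries. OST was above GCs without overlap in both arms, by 0.45 ± 0.06 on the log2 scale in Sema3E ovaries (limma adjusted p = 0.00116) and by 0.55 ± 0.21 in IgG ovaries (adjusted p = 0.147). Ccnd3, encoding cyclin D3, was higher in OST of Sema3E ovaries by 0.56 ± 0.13 (limma adjusted p = 0.0142). Ccnd2 in OST had 51.1, 60.3 and 47.3 TPM in Sema3E ovaries and 55.2, 63.5 and 130 TPM in IgG ovaries, and its GC values are given with the Sema3E comparison below. Its OST minus GC difference was 0.29 in Sema3E ovaries and 1.32 in IgG ovaries, and neither passed (limma adjusted p = 0.0881 and 0.0534).

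Genes that copy DNA were on the whole higher in OST. Of the 10 in the set, 6 were called higher in OST of Sema3E ovaries (Mcm2, Mcm3, Mcm5, Mcm6, Pcna and Tyms) and 1 lower (Rrm2). Across all genes 28.2% were called higher and 17% lower. The median log2 difference of the 10 was 0.30 beside 0.051 for all genes. Mcm6 had 31.9, 33.2 and 29.3 TPM in OST and 21.1, 21.5 and 19.5 TPM in GCs of Sema3E ovaries, and 31.5, 40.5 and 60.1 TPM in OST and 15.7, 17.2 and 20.4 TPM in GCs of IgG ovaries. The tissues did not overlap, and the difference passed in both arms, at 0.58 ± 0.08 (limma adjusted p = 0.00163) and 1.22 ± 0.25 (adjusted p = 0.0329). This is the promoter above with 3 matches to E2F letters.

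Mcm2, the helicase subunit whose promoter above held CHR letters, had 50.4, 56.1 and 51.2 TPM in OST and 39.3, 41.6 and 38.2 TPM in GCs of Sema3E ovaries, and 49.7, 62.4 and 70.0 TPM in OST and 30.4, 43.2 and 43.3 TPM in GCs of IgG ovaries. Pcna, the sliding clamp of DNA polymerase, had 258, 253 and 243 TPM in OST and 194, 182 and 201 TPM in GCs of Sema3E ovaries, and 232, 266 and 319 TPM in OST and 188, 195 and 233 TPM in GCs of IgG ovaries. OST and GCs were separate for both genes in Sema3E ovaries, and Pcna overlapped by 1 library in IgG ovaries. The differences in Sema3E ovaries were 0.40 ± 0.07 for Mcm2 and 0.39 ± 0.06 for Pcna (limma adjusted p = 0.00561 and 0.00364). Rrm2, the small subunit of ribonucleotide reductase, was the exception, with 66.9, 77.0 and 79.7 TPM in OST and 108, 110 and 116 TPM in GCs of Sema3E ovaries, and 75.6, 90.2 and 85.7 TPM in OST and 90.2, 130 and 108 TPM in GCs of IgG ovaries. It was lower in OST by -0.57 ± 0.08 in Sema3E ovaries (limma adjusted p = 0.00215) and its difference was -0.37 in IgG ovaries.

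Mitotic genes were lower in OST of Sema3E ovaries. The median log2 difference of 17 genes of G2, mitosis and proliferation was -0.34, beside 0.051 for all genes. Of the 17, 0 were called higher and 11 lower, beside 28.2% and 17% of all genes. The 11 were the cyclin B1 gene Ccnb1, the phosphatase gene Cdc25c, the mitotic transcription factor gene Foxm1, the mitotic kinase genes Plk1, Aurka and Aurkb, the spindle checkpoint genes Bub1, Bub1b and Mad2l1, and both proliferation markers. In IgG ovaries none of the 17 was called. At an unadjusted p below 0.05 limma gave 0, beside 26.9% of all genes higher and 2.72% lower. Their median was 0.078 as deposited, beside 0.30 for all genes. It was -0.24 after scaling by median ratios, beside 0.032 for all genes, and -0.34 without OST IgG 3 and GC IgG 1, beside 0.19. The mitotic median thus lay below that of all genes in IgG ovaries as well.

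Mki67 had 26.2, 32.5 and 27.1 TPM in OST and 46.5, 42.4 and 46.8 TPM in GCs of Sema3E ovaries, and 35.4, 45.0 and 63.9 TPM in OST and 33.1, 40.7 and 47.1 TPM in GCs of IgG ovaries. Top2a had 34.7, 43.1 and 36.3 TPM in OST and 61.2, 55.5 and 62.0 TPM in GCs of Sema3E ovaries, and 45.9, 53.2 and 67.8 TPM in OST and 48.6, 63.5 and 66.4 TPM in GCs of IgG ovaries. For both, OST was below GCs without overlap in Sema3E ovaries, and the tissues overlapped in IgG ovaries. The differences in Sema3E ovaries were -0.65 ± 0.10 and -0.64 ± 0.10 (limma adjusted p = 0.00275 and 0.00288).

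Ccnb1 had 50.6, 61.8 and 50.1 TPM in OST and 81.1, 78.6 and 83.5 TPM in GCs of Sema3E ovaries, and 61.8, 71.3 and 101 TPM in OST and 74.4, 86.8 and 94.6 TPM in GCs of IgG ovaries. Aurka, whose kinase acts at centrosomes, had 18.7, 19.1 and 16.9 TPM in OST and 26.7, 25.9 and 29.4 TPM in GCs of Sema3E ovaries, and 21.5, 24.1 and 30.8 TPM in OST and 22.5, 29.9 and 32.0 TPM in GCs of IgG ovaries. Bub1, a kinetochore kinase of the spindle checkpoint, had 5.80, 6.81 and 5.69 TPM in OST and 9.16, 8.59 and 9.17 TPM in GCs of Sema3E ovaries, and 6.67, 8.48 and 11.97 TPM in OST and 7.23, 9.76 and 11.7 TPM in GCs of IgG ovaries. All 3 repeated the pattern of the markers, separate in Sema3E ovaries and overlapping in IgG ovaries. Their differences in Sema3E ovaries were -0.58 ± 0.10, -0.56 ± 0.08 and -0.49 ± 0.09 (limma adjusted p = 0.00355, 0.00237 and 0.00542).

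Other abundant members differed less between tissues. Cdc20, the activator of the anaphase-promoting complex, had 121, 150 and 105 TPM in OST and 146, 144 and 161 TPM in GCs of Sema3E ovaries, and 126, 152 and 185 TPM in OST and 122, 162 and 212 TPM in GCs of IgG ovaries. Ccna2, encoding cyclin A2 of S phase and G2, had 62.3, 78.6 and 57.5 TPM in OST and 72.9, 66.7 and 74.1 TPM in GCs of Sema3E ovaries, and 73.6, 87.9 and 130 TPM in OST and 61.8, 73.9 and 91.1 TPM in GCs of IgG ovaries. The tissues overlapped for both genes in both arms. Cdkn1b, encoding the CDK inhibitor p27, had 151, 193 and 207 TPM in OST and 181, 169 and 180 TPM in GCs of Sema3E ovaries, and 240, 180 and 166 TPM in OST and 146, 173 and 175 TPM in GCs of IgG ovaries, again overlapping. Of the inhibitors, Cdkn2c (p18) was higher in OST of Sema3E ovaries by 0.43 ± 0.09 (limma adjusted p = 0.00873).

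**Figure D2:**
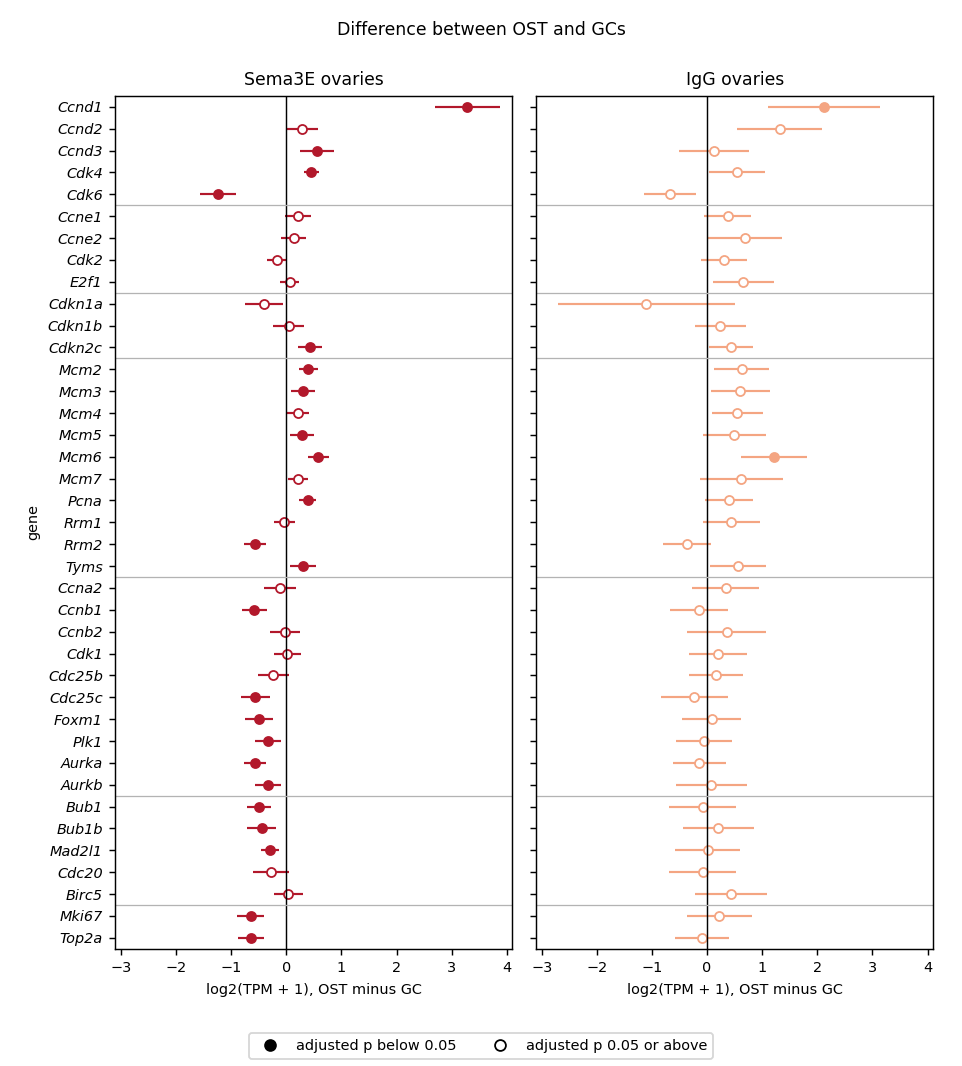
Points are log2(TPM + 1) in OST minus GCs for each gene, in Sema3E ovaries (left) and IgG ovaries (right), with 95% limma confidence intervals from 3 libraries per group; filled points have an adjusted p below 0.05. In Sema3E ovaries Ccnd1 lies at 3.28 and Cdk6 at -1.24. There 6 of 10 replication genes are filled to the right (28.2% of all genes) and 11 of 17 mitotic genes to the left (17% of all genes). In IgG ovaries Ccnd1 and Mcm6 alone are filled.

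The calls in Sema3E ovaries moved with the scaling. All 13 lower calls held when TPM was scaled by median ratios, rescaled without globin genes, or rescaled without globin, mitochondrial and predicted genes and pseudogenes. Of the 10 higher calls, Ccnd1, Ccnd3 and Mcm6 held under all 3. Neither of the 2 higher calls in IgG ovaries (Ccnd1 and Mcm6) held under any of the 3. Leaving out 1 library at a time gave 16 to 22 calls in Sema3E ovaries, and 16 members were called each time, while Aurkb, Bub1b, Mad2l1, Mcm3, Mcm5, Plk1 and Tyms were not. In IgG ovaries 0 were called without GC IgG 2, GC IgG 3 or OST IgG 2, only Ccnd1 without GC IgG 1, only Mcm6 without OST IgG 1, and Ccnd1, Ccnd2 and Mcm6 without OST IgG 3. The split of higher to lower calls was 10 to 13 as deposited, 7 to 15 with median ratios, 6 to 16 without globin genes and 3 to 20 without all the named classes, while the median of all genes was 0.051, 0.0016, -0.075 and -0.19. The median of the replication genes stayed above 0, at 0.30, 0.24, 0.15 and 0.022, and that of the mitotic genes below 0, at -0.34, -0.39, -0.48 and -0.62.

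A difference between genes of the same library depends less on the scaling. The mean log2(TPM + 1) of the 10 replication genes minus that of the 17 mitotic genes was 0.95, 0.89 and 1.01 in OST of Sema3E ovaries, 0.79, 0.83 and 0.65 in OST of IgG ovaries, 0.40, 0.45 and 0.33 in GCs of Sema3E ovaries, and 0.30, 0.35 and 0.30 in GCs of IgG ovaries. Taken on log2 TPM with no pseudocount, so that no scaling of a library moves it, the difference was 0.67 to 1.06 in OST and 0.31 to 0.47 in GCs. All 6 OST libraries were above all 6 GC libraries, and in OST all 3 Sema3E libraries were above all 3 IgG libraries. The TPM ratio of Mcm6 to Mki67, which no scaling moves either, gave the same order of the OST groups and the GCs, with 1.22, 1.02 and 1.08 in OST of Sema3E ovaries, 0.891, 0.900 and 0.941 in OST of IgG ovaries, and 0.417 to 0.508 in the 6 GC libraries, where the Sema3E and IgG libraries overlapped. Within groups the order of the libraries was not the same, since OST IgG 3 was the lowest OST library by the first measure and the highest of the OST IgG libraries by the ratio. Both measures were chosen after the values were seen and are given as descriptions.

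**Figure D3:**
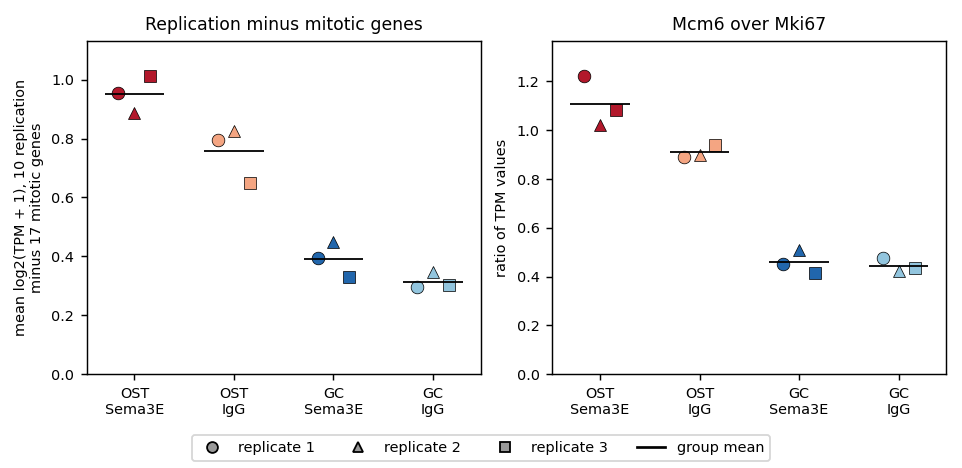
The left panel shows, for each library, the mean log2(TPM + 1) of 10 replication genes minus that of 17 mitotic genes, and the right panel the TPM ratio of Mcm6 to Mki67; symbols are replicates and lines group means (n = 3). The 6 OST libraries lie at 0.65 to 1.01 on the left, above the 6 GC libraries at 0.30 to 0.45.

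In OST, Sema3E against IgG, most cell cycle genes had lower values with Sema3E, but none passed the test across all genes. Of the 39, 36 had a log2 difference below 0 (92.3%, against 71.1% of all 16273 genes tested), and the median was -0.35 beside -0.18 for all genes. By limma 0 members and 0 of all genes had an adjusted p below 0.05. At an unadjusted p below 0.05 limma gave 9 members lower and 0 higher, or 23.1% of members lower beside 13.2% of all genes (1.68% of all genes were higher), and all 9 had adjusted p-values of 0.332 or 0.333. In 14 members (35.9%) every Sema3E library was below every IgG library, beside 29.9% of all genes.

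The 9 genes were mostly mitotic. Mki67 (26.2, 32.5 and 27.1 TPM with Sema3E, 35.4, 45.0 and 63.9 TPM with IgG) had a difference of -0.70 ± 0.22, and Top2a (34.7, 43.1 and 36.3 TPM with Sema3E, 45.9, 53.2 and 67.8 TPM with IgG) of -0.53 ± 0.17. Foxm1 had 22.3, 28.5 and 24.2 TPM with Sema3E and 32.6, 34.9 and 48.9 TPM with IgG, a difference of -0.60 ± 0.18. Groups did not overlap for any of the 3, and OST IgG 3 was the highest library for each.

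Aurka had 18.7, 19.1 and 16.9 TPM with Sema3E and 21.5, 24.1 and 30.8 TPM with IgG, a difference of -0.45 ± 0.15. Cdc25b, a phosphatase gene that activates CDK1, had 12.6, 16.5 and 15.2 TPM with Sema3E and 16.7, 22.0 and 27.8 TPM with IgG, a difference of -0.53 ± 0.20. Ccnb1 had 50.6, 61.8 and 50.1 TPM with Sema3E and 61.8, 71.3 and 101 TPM with IgG, a difference of -0.50 ± 0.20. The first pair did not overlap, and Ccnb1 met at 61.8 TPM, where the highest Sema3E library was just above the lowest IgG library.

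The remaining 3 act in G1 and S phase. Cdk2, the kinase of cyclins E and A, had 52.2, 57.9 and 54.1 TPM with Sema3E and 64.4, 66.1 and 78.4 TPM with IgG, a difference of -0.34 ± 0.11. In GCs it had 64.5, 58.9 and 62.3 TPM with Sema3E and 46.6, 61.6 and 61.0 TPM with IgG. Rrm1, the large subunit of ribonucleotide reductase, had 29.3, 32.6 and 27.8 TPM with Sema3E and 32.6, 38.3 and 44.9 TPM with IgG in OST, a difference of -0.35 ± 0.14. Cdk6 in OST (2.21, 3.04 and 2.99 TPM with Sema3E, 4.38, 4.42 and 3.29 TPM with IgG) had a difference of -0.42 ± 0.17. In OST none of the 3 overlapped, although for Rrm1 the nearest libraries both rounded to 32.6 TPM.

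Only Ccnd1, Ccnd3 and Cdkn1a had positive differences in OST. Ccnd1 was at 0.45 ± 0.26, with 34.2, 36.1 and 42.9 TPM with Sema3E and 36.9, 29.6 and 18.2 TPM with IgG, and the groups overlapped. Cdkn1a, which encodes the CDK inhibitor p21, had 43.7, 38.2 and 47.6 TPM with Sema3E and 60.9, 42.4 and 8.21 TPM with IgG. Its difference of 0.59 ± 0.68 rested on OST IgG 3, the library at 8.21 TPM.

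These values moved with 1 library and with the scaling, and markers of several cell types also differed between the groups. Without OST IgG 3 the median difference of the 39 genes was -0.19, beside -0.16 for all genes, with 37 below 0. In that fit 7 of the 39 were lower at an unadjusted p below 0.05 by limma, beside 16.8% of all genes. Scaling by median ratios gave a median of -0.16, beside -0.019 for all genes, with 31 below 0. It gave 1 of the 39 lower at that p, beside 4.21% of all genes. Leaving out OST Sema3E 1, OST Sema3E 3, OST IgG 2 or OST IgG 1 gave 0, 1, 5 and 21 members lower at that p. Without OST IgG 1, 1 member was also higher. Lower at that p in these fits were 4.6%, 6.14%, 10.4% and 12.4% of all genes. Granulosa markers summed to 6533 to 8670 TPM with Sema3E and 8499 to 15769 TPM with IgG, and 10 of 12 had differences below 0. Oocyte markers summed to 351 to 545 TPM with Sema3E and 508 to 1626 TPM with IgG, with 12 of 12 below 0. Neutrophil markers ran the other way, with sums of 40.3 to 173 TPM with Sema3E and 0.705 to 12.7 TPM with IgG and all 5 tested markers above 0. Macrophage and monocyte markers summed to 188 to 298 TPM with Sema3E and 104 to 184 TPM with IgG, with 10 of 10 tested above 0, a median of 0.60 and 4 not overlapping. Of 6 tested surface epithelium markers, 5 were above 0, and the sums were 249 to 289 TPM with Sema3E and 170 to 207 TPM with IgG. Endothelial markers had 9 of 10 above 0, with sums of 399 to 484 TPM with Sema3E and 281 to 478 TPM with IgG. Theca and stroma markers had 10 of 12 below 0, with sums of 1363 to 1650 TPM with Sema3E and 1477 to 1935 TPM with IgG. Of all genes tested in this comparison, 71.1% were below 0. Luteinizing granulosa markers summed to 2752 to 3811 TPM with Sema3E and 51.7 to 3707 TPM with IgG, with 12 of 12 above 0, and none of the 12 was at 0 in any library. Of the 6 listed neutrophil markers, 4 were at 0 in OST IgG 3. The part of these cell types in the cell cycle values was not tested.

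**Figure D4:**
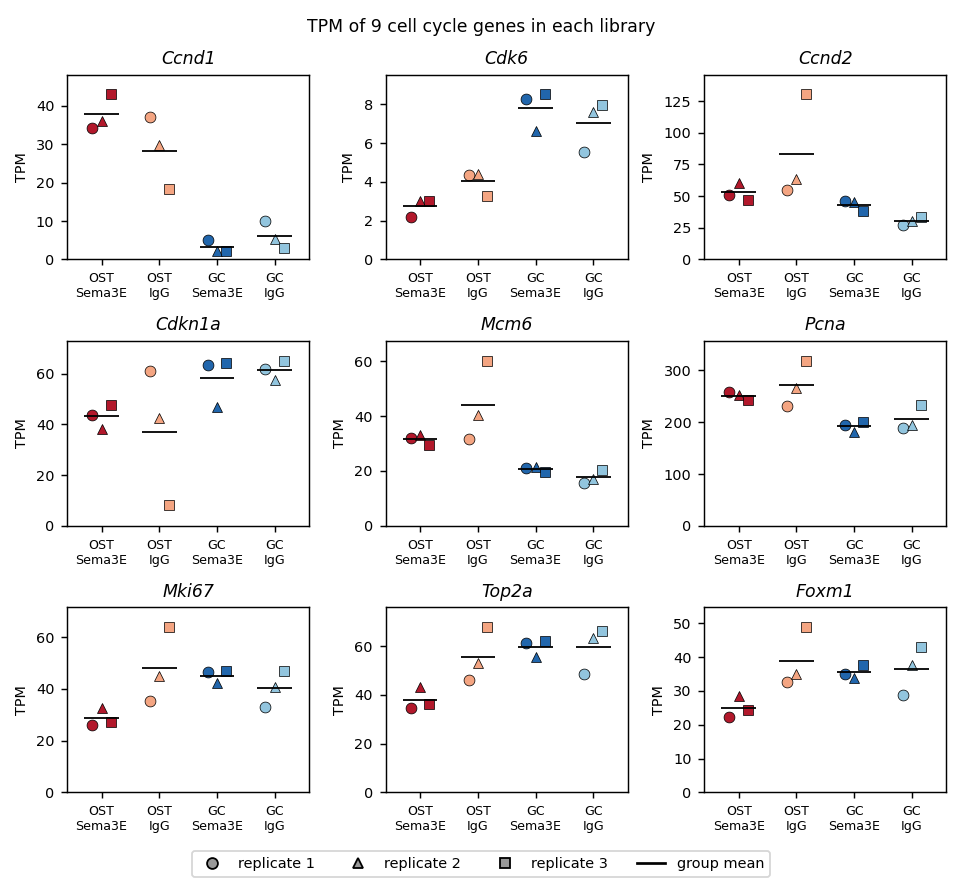
TPM of 9 genes in the 12 libraries, with 1 symbol per replicate and a line at the group mean (n = 3); every axis starts at 0. Mki67, Top2a and Foxm1 lie lower in OST of Sema3E ovaries than in OST of IgG ovaries, where replicate 3 is the highest, Ccnd1 is at 18.2 to 42.9 TPM in OST and 2.21 to 9.99 TPM in GCs, and Cdkn1a is at 8.21 TPM in OST IgG 3.

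In GCs, Sema3E against IgG, cell cycle genes showed no common direction. Of the 39, 17 had a log2 difference above 0 and 22 below (56.4%, beside 35% of all genes), with a median of -0.012 beside 0.057 for all genes. By limma, 0 members had an adjusted p below 0.05, where 10 of 15128 genes (0.0661%) did, and 1 member had an unadjusted p below 0.05, beside 5.11% of all genes. These counts turned on single libraries. Without GC IgG 3, 5 of 39 were below 0, and without GC IgG 1, 31 were, while scaling by median ratios gave 30. For Cdk4 the 3 Sema3E libraries lay at 383 to 388 TPM, inside the spread of the IgG libraries at 297 to 474 TPM. In the replication minus mitotic measure they were at 0.33 to 0.45, a wider range than that of the IgG libraries at 0.30 to 0.35.

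The 1 member was Ccnd2, whose cyclin D2 drives granulosa division. It had 46.2, 45.0 and 38.0 TPM in Sema3E GCs and 27.3, 30.4 and 33.6 TPM in IgG GCs. Every Sema3E library was above every IgG library, with a log2 difference of 0.49 ± 0.14 (95% interval 0.16 to 0.81), and it did not pass over all genes (limma adjusted p = 0.817). The 12 granulosa markers all had differences above 0 in this comparison, with sums of 11443 to 12122 TPM in Sema3E GCs and 7323 to 14717 TPM in IgG GCs, and 10 of 10 oocyte markers did, with sums of 407 to 451 TPM and 198 to 341 TPM. Of the 12 luteinizing granulosa markers, 5 were above 0 and 7 below, and 35% of all genes were below 0. The part of these cell types in the Ccnd2 values was not tested. The other non-overlapping member was Ccnd3, which had 6.76, 4.91 and 6.79 TPM in Sema3E GCs and 8.60, 7.38 and 6.85 TPM in IgG GCs, a difference of -0.27 ± 0.15. With 1 member not overlapping in each direction (2.56%), the background was 8.99% of genes higher and 2.05% lower. The largest differences in size were that of Ccnd1, at -0.71 ± 0.43 with overlapping groups (limma adjusted p = 0.999), and that of Ccnd2. Ccnd1 had 4.95, 2.21 and 2.26 TPM in Sema3E GCs and 9.99, 5.37 and 2.89 TPM in IgG GCs, where GC Sema3E 1 lay above GC IgG 3. All 10 genes of G2 and mitotic entry had small differences below 0, from -0.13 to -0.012, while both proliferation markers were above 0, at 0.17 for Mki67 and 0.013 for Top2a. This direction was not stable, since of the 17 mitotic genes 3 were above 0 with all libraries, 16 without GC IgG 3, 9 without GC Sema3E 2 and 7 without GC IgG 2.

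**Figure D5:**
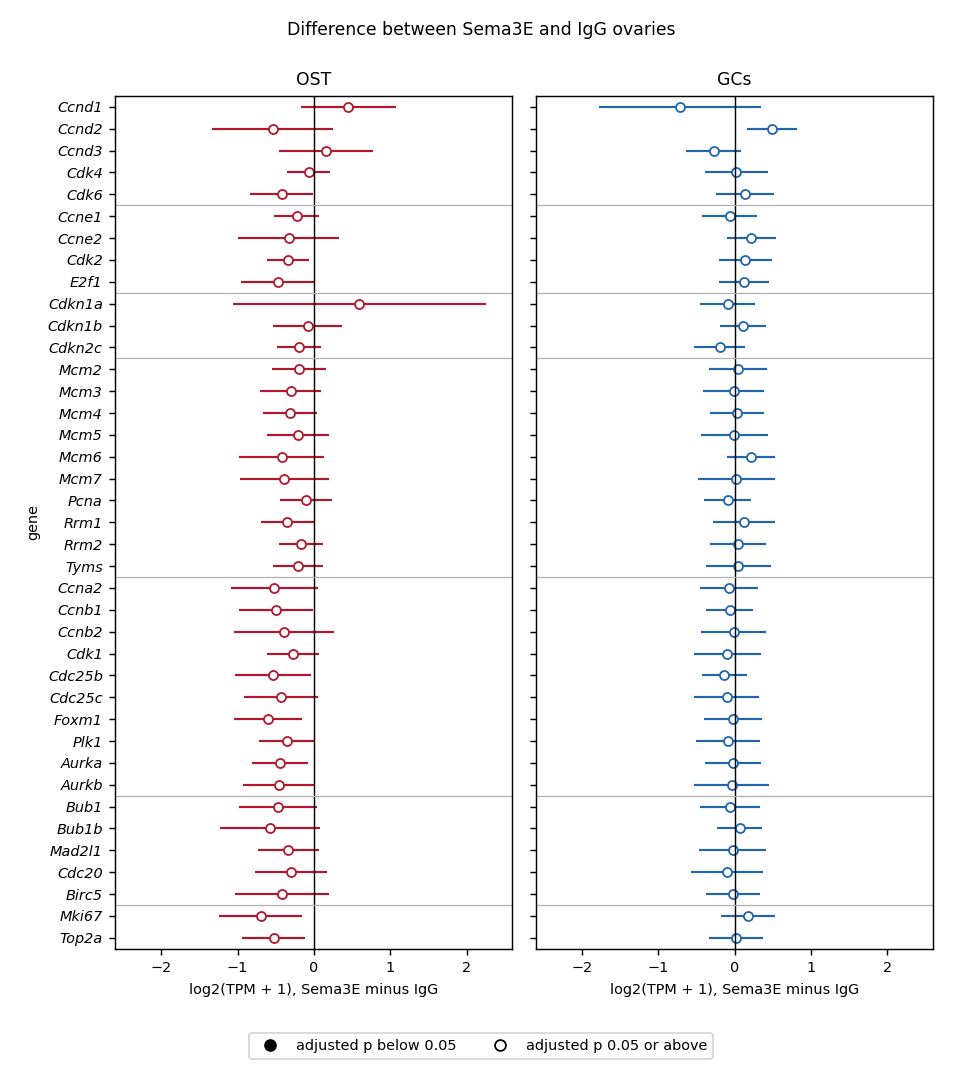
Points are log2(TPM + 1) in Sema3E minus IgG ovaries for each gene, in OST (left) and GCs (right), with 95% limma confidence intervals from 3 libraries per group; all points are open because none has an adjusted p below 0.05. In OST 36 of 39 points lie below 0, and in GCs 22 of 39.

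Whether the Sema3E difference was itself unlike in the 2 tissues was tested over all 12 libraries as the OST difference minus the GC difference. By limma 0 of 39 members and 0 of 16903 genes had an adjusted p below 0.05. At an unadjusted p below 0.05 limma gave 8 members, all negative (Mki67, Ccnd2, Cdk2, Cdk6, E2f1, Top2a, Mcm6 and Foxm1), or 20.5% beside 16.9% of all genes negative. The median was -0.38 beside -0.22 for all genes, and 35 of 39 were below 0 (89.7%, beside 70.4% of all genes). Mki67 had the smallest p, at -0.87 ± 0.28 (limma adjusted p = 0.204). Ccnd2 had the largest negative value, -1.03 ± 0.37 (limma adjusted p = 0.215), made of -0.54 in OST and 0.49 in GCs. Without GC IgG 1 and OST IgG 3 the median was -0.041 beside -0.15 for all genes, with 20 below 0, so the common direction rested on those 2 libraries. Leaving out 1 library at a time gave between 3 (without GC IgG 1, GC Sema3E 1, GC Sema3E 3 or OST Sema3E 1) and 17 (without OST IgG 1) members at that p. Without GC Sema3E 1 and without OST IgG 1, 2 and 16 of these were lower and 1 was higher in each. Lower at that p were 11.1% to 12.9% of all genes in the fits that gave 3, and 19.9% in the fit that gave 17.

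Another 97 cell cycle genes, taken in 6 lists by function, were read the same way, and 95 were tested in each comparison. In OST against GCs of Sema3E ovaries, 14 were called higher (14.7%, beside 28.2% of all genes) and 41 lower (43.2%, beside 17% of all genes), with a median of -0.21 beside 0.051 for all genes. Kinetochore, spindle and cytokinesis genes gave 14 lower of 21, led by Nek2, a centrosome kinase gene, at -0.87 ± 0.12, and Cenpa, the centromere histone gene, at -0.52 ± 0.08. Condensation and separation genes gave 9 lower of 11, with Espl1, the separase gene, at -0.72 ± 0.10. The list of RB, E2F and DREAM genes gave 10 lower of 14, with E2f2, E2f8 and E2f7, which encode E2F factors, at -0.68, -0.44 and -0.56. Adjusted p-values from limma for these 6 named genes were between 0.00146 and 0.00415.

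Replication fork and nucleotide genes gave 5 higher and 0 lower of 16. Across all genes 28.2% were called higher and 17% lower, the background for each list here. Tk1 (thymidine kinase) was at 0.66 ± 0.07, Rpa1 at 0.53 ± 0.08, Dut at 0.55 ± 0.08 and Chaf1b at 0.56 ± 0.11. Of 14 origin genes 1 was called higher (Cdc6, 0.35) and 2 lower (Dbf4, -0.53, and Gmnn, -0.30). CDK control and arrest genes gave 8 higher and 6 lower of 19. Cdkn2b, encoding the CDK4 inhibitor p15, had 12.3, 8.60 and 9.18 TPM in OST and 1.33, 1.01 and 0.549 TPM in GCs of Sema3E ovaries, a difference of 2.50 ± 0.19 (limma adjusted p = 0.000144). In IgG ovaries it had 10.1, 8.32 and 1.67 TPM in OST and 1.46, 2.30 and 1.23 TPM in GCs, where OST IgG 3 again stood apart and the tissues overlapped. Ccnh, the cyclin of the CDK-activating kinase, was the 1 gene of the 95 called in IgG ovaries. There 8.34% of all genes were called higher and 0.301% lower.

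In OST, Sema3E against IgG, 89 of the 95 had differences below 0 (93.7%, beside 71.1% of all genes), with a median of -0.38 beside -0.18 for all genes. At an unadjusted p below 0.05 limma gave 30 lower (31.6%, beside 13.2% of all genes) and 0 higher, and 0 at an adjusted p below 0.05. In 47 the groups did not overlap, with Sema3E lower (49.5%, beside 29.9% of all genes). The 30 became 24 without OST IgG 3, 48 without OST IgG 1 and 15 without OST IgG 2, beside 16.8%, 12.4% and 10.4% of all genes lower. They became 5 without OST Sema3E 1, 16 without OST Sema3E 2 and 6 without OST Sema3E 3, beside 4.6%, 8.32% and 6.14%. With median ratios 4 of the 95 were lower, beside 4.21% of all genes. E2f8, a repressor of E2F targets, had 5.72, 6.28 and 6.10 TPM with Sema3E and 9.05, 8.89 and 10.3 TPM with IgG, a difference of -0.56 ± 0.11 (limma adjusted p = 0.332). Its 3 IgG libraries lay close together, and OST IgG 3 was not far from the rest. In GCs, 57 had differences above 0 and 38 below (40.0%, beside 35% of all genes), with 12 below 0 without GC IgG 3, 75 without GC IgG 1 and 68 with median ratios, and limma gave 0 at an unadjusted p below 0.05.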

How the data were processed

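RNA from GCs or OST of single ovaries was sequenced, and the values used are the TPM that the authors deposited, 1 column for each of the 12 libraries. Per the labels and the submitters' processing notes, reads were aligned to the mouse genome (GRCm38) with HISAT2 2.0.5 and counted per gene with featureCounts 1.5.0-p3, and TPM came from edgeR 1.3.3. TPM fixes each library's sum, so read depth is unknown and one abundant class lowers all others. No source ties a replicate number to a mouse, and p-values measure only the spread between these libraries. The 39 genes, the other lists and the tests were chosen with earlier results of these data known.

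TPM was transformed to log2(TPM + 1), and genes over 1 TPM in at least 1 library of a fit were tested with limma 3.58.1 (R 4.3.3, trend and robust, two-sided), with Benjamini-Hochberg adjustment over all genes tested and a threshold of 0.05. A log2 difference on this scale understates the change of low genes. The fits were tested on simulated data. Values in each library of the comparison are given for members with an adjusted p below 0.05, or an unadjusted p below 0.05 between Sema3E and IgG. Up to 12 per comparison were taken by smallest p. The most abundant member of each role has its values in all 12 libraries. Of the other lists, up to 4 genes with the smallest p are named. Of the 39 genes, 6 have a near-identical transcript in GENCODE M21 (95% identity over 80% of its length): Ccnb1, Ccnd2, Ccnd3, Mcm7, Pcna and Rrm2, whose values may be split with it. Alternatives were the pseudocount, the filter, scaling by median ratios, rescaling without globin and other classes, array weights, a replicate block, a fit over all libraries and leaving out each library. Rescaling without globin genes alone, for OST against GCs, was added after seeing the data.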

Additional observations from a re-analysis of the deposited data

How the results depend on the processing

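No called gene reversed its direction under the alternatives run. Between Sema3E and IgG in GCs, 0 of 39 genes had an adjusted p below 0.05, but array weights gave 4 (Ccnd2, at an adjusted p of 0.0105 by limma, Ccne2 and Mcm6 higher, Cdkn2c lower) and the replicate block 1 (Ccnd1 lower, at an adjusted p of 0.043 by limma). The weights gave a convergence warning. Genes with an unadjusted p below 0.05 there numbered 1, and 3 with median ratios, 3 without globin and the other classes, 9 with array weights, 2 with the replicate block, 0 in the fit over all 12 libraries, and 1 to 3 when leaving out 1 library. Members lower at that p numbered 0 as reported, 2 with median ratios, 4 with array weights and 1 with the replicate block. Of all genes, 1.08%, 3.61%, 15.2% and 2.25% were lower in these fits. The median was between -0.16 and 0.10 when leaving out 1 library.

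In OST, the 9 genes at an unadjusted p below 0.05 became 1 with median ratios, 19 with array weights and 4 with the replicate block. When leaving out 1 library they became 0 (without OST Sema3E 1) to 22 (without OST IgG 1, 21 lower and 1 higher). There was 1 without OST Sema3E 3, and there were 5 without OST IgG 2. Lower at that p were 13.2% of all genes as reported, 4.21% with median ratios, 23.3% with array weights and 7.75% with the replicate block. Leaving out 1 library gave 4.6% to 16.8% of all genes. The median of -0.35 became -0.16 with median ratios, and -0.46 to -0.19 when leaving out 1 library.

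For OST against GCs in IgG ovaries, the 2 genes with an adjusted p below 0.05 became 0 without a filter, 23 with array weights, 13 in the fit over all 12 libraries, 6 without GC IgG 1 and OST IgG 3, 1 without globin genes, and 0 to 3 when leaving out 1 library. Median ratios also gave 2, but Cdk6 and Rrm2 lower in place of Ccnd1 and Mcm6 higher. The 11 genes at an unadjusted p below 0.05 became 7 without globin and the other classes, 24 with array weights, 19 in the fit over all 12 libraries, and 5 to 14 when leaving out 1 library. Members lower at that p numbered 1 as reported, 7 with array weights and 2 in the fit over all 12 libraries. Of all genes, 2.72%, 12.1% and 4.99% were lower in these fits. Shares of all genes at an adjusted p were not taken for the alternatives. The median of 0.30, beside 0.30 for all genes, became 0.17 to 0.42 when leaving out 1 library, -0.017 with median ratios, 0.00084 without globin and the other classes, and 0.030 without GC IgG 1 and OST IgG 3. For Sema3E ovaries the 23 genes became 11, and the 28 at an unadjusted p below 0.05 became 16, in the fit over all 12 libraries. Of the 28 and the 16, 15 and 9 were lower, beside 21.4% and 14.2% of all genes. Leaving out 1 library gave 16 to 22 and 21 to 27. The median of -0.028 became -0.30 without globin and the other classes and -0.17 without globin genes.

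For the difference between tissues, the 8 genes became 3 with median ratios (2 lower and 1 higher), 3 with array weights, 4 without GC IgG 1 and OST IgG 3, and 3 to 17 when leaving out 1 library. Lower at that p were 16.9% of all genes as reported, 8.72% with median ratios and 16.5% with array weights. Without GC IgG 1 and OST IgG 3 the share was 15.4%. The median of -0.38 became -0.13 with median ratios, -0.13 with array weights, -0.041 without those 2 libraries, and -0.51 to -0.19 when leaving out 1 library. Causes of these shifts were not tested.

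Replicate numbers were not taken as pairs, since no label ties a number to a mouse. Sema3E and IgG libraries may come from the 2 ovaries of a mouse, and GC and OST libraries from the same ovary. The correlation of same-numbered deviations ran from -0.18 to 0.34 and was not above 0.1 for every number in any comparison. With 3 libraries a group, these correlations cannot show that pairs are absent. With the replicate block, 3 genes were called in IgG ovaries and 18 in Sema3E ovaries for OST against GCs. With 3 libraries a group and no read depth, small differences could not be resolved, and 95% intervals for Sema3E minus IgG in OST reached as far as -1.33 and 2.25 on the log2 scale.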
